A study of Mus musculus with 7 samples.

Results

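The mouse keratin and keratin-associated protein (Krtap) genes were taken as the protein-coding genes whose symbol begins with Krt and a number, or with Krtap, on chromosomes 1 to 19 of the GENCODE vM21 annotation. This rule gave 110 of 20722 genes. They were 53 keratin genes, of which 27 lay on chromosome 11 (type I) and 26 on chromosome 15 (type II and Krt18), and 57 Krtap genes, of which 23 lay on chromosome 11, 24 on chromosome 16 and 10 on chromosomes 1, 7 and 10. Chromatin accessibility was measured by DNase-Seq in a conditionally immortalised mouse podocyte line after differentiation, an epithelial cell of the kidney filter. Podocytes were kept for 36 h in normal glucose (NG, 5 mM, no mimic), in high glucose with a nontargeting mimic (HG+NT, 25 mM, 50 nM mimic) or in high glucose with a miR-93 mimic (HG+miR-93, 25 mM, 50 nM mimic). Each condition had 2 replicates and 1 list of peaks against 1 genomic DNA input, named as a joint set and so taken as pooled. Only these lists were used here, so that no value has a replicate error and no test between conditions was possible from them. NG differed from HG+NT in both glucose and transfection, and these cannot be told apart.

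Keratins are the intermediate filaments of epithelia, built from pairs of an acidic type I and a basic type II protein, and each pair marks a kind of epithelium or a layer of skin, hair or nail. Krt8 and Krt18 form the pair of simple epithelia, while the Krtap proteins crosslink keratin filaments in the hair shaft. Podocytes carry vimentin filaments and are reported to have little or no keratin once mature, so that the clusters hold many genes for which no activity is known in these cells.

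Sequence from RefSeq (GRCm38.p6) was found for 87 of the 110 members, 36 keratins and 51 Krtap genes, and 5 promoters are shown as the 250 bases before the RefSeq start, 5′ to 3′ on the gene's strand. Krt8 (chr15:102004343-102004592, minus strand) and Krt18 (chr15:102027966-102028215, plus strand) are given as the simple epithelial pair. Krt7 (chr15:101412153-101412402, plus strand) is given as 1 of 2 members with a GC box, Krtap29-1 (chr11:99979101-99979350, minus strand) as the Krtap gene of chromosome 11 with the highest pileup, and Krtap20-2 (chr16:89205611-89205860, plus strand) as the lowest of chromosome 16. Capitals mark TATAAA and GGGCGG on either strand.
Krt8: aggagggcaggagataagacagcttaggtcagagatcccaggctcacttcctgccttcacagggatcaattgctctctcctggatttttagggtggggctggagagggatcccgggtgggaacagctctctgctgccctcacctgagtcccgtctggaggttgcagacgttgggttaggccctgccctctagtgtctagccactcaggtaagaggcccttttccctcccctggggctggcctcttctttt
Krt18: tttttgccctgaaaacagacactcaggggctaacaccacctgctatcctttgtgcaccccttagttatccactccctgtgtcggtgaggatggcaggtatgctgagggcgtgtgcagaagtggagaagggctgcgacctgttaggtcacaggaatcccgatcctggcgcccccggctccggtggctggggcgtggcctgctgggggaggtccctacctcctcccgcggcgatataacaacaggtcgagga
Krt7: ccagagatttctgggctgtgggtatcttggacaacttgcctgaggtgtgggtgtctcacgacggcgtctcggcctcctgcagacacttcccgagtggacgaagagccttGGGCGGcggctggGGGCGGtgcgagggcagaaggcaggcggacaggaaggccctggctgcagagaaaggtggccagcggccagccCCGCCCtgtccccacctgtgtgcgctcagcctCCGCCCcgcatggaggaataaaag
Krtap29-1: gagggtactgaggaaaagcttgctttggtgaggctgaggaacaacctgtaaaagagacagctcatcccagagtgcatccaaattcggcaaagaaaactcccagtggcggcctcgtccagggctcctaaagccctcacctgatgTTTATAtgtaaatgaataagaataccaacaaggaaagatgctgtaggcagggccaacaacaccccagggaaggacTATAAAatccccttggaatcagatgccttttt
Krtap20-2: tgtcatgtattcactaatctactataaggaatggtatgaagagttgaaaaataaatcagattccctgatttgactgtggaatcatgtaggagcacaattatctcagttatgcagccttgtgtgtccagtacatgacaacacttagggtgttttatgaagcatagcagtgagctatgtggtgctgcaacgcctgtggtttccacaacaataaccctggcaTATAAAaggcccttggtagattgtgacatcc

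The TATA box, spelled TATAAA and read on both strands, were present in the 300-base window (250 before to 50 after the start) of 61 of the 87 members, or 70.1% (95% Wilson interval 59.8 to 78.7), and in 12.9% of the windows of 15680 protein-coding genes. On the gene's own strand and 20 to 40 bases before the start they were found in 44 of 87 members, 50.6%, and in 2.86% of all genes. By group, TATAAA was found in 20 of 21 Krtap promoters of chromosome 11, 16 of 23 of chromosome 16, 13 of 20 keratin promoters of chromosome 11 and 6 of 16 of chromosome 15. In Krtap29-1 it began 32 and in Krtap20-2 31 bases before the start. In Krt8 it began 1 base before the RefSeq start, which lies 140 nt inside the GENCODE start used for the peaks. The GC box GGGCGG, common in promoters with CpG islands, was found in 48.4% of all windows and in 2 members, Krt7 with 4 matches and Krt75. The AP-1 letters TGANTCA were found in 11 members, 12.6% (7.21 to 21.2), against 7.02% of all windows, and 10 of these were among the 51 Krtap genes (19.6%) and 1 among the 36 keratins (2.78%). A match describes the letters of a window and not a bound site.

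**Figure D1:**
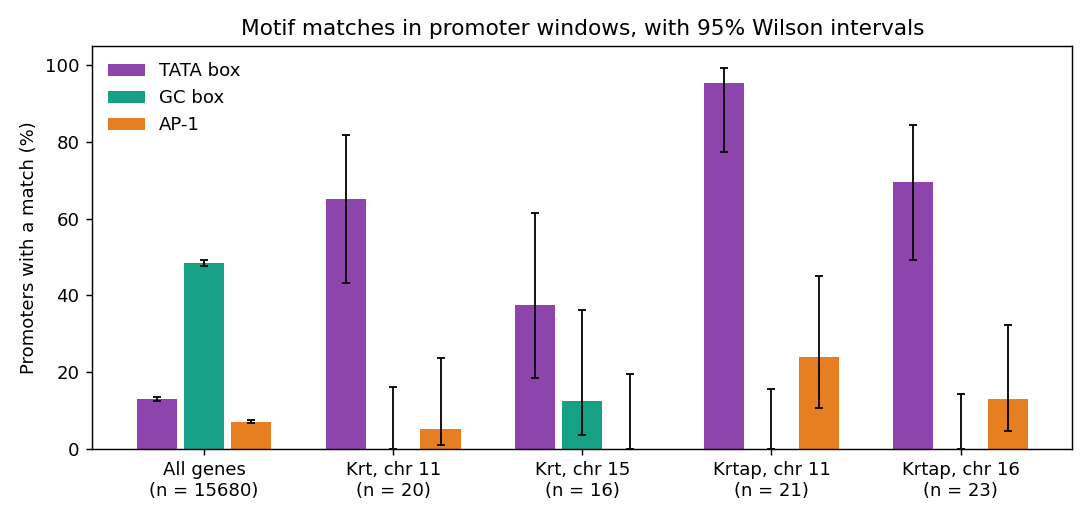
Share of 300-base promoter windows with a match to each motif on either strand, by group, with 95% Wilson intervals as error bars and the number of windows under each group. TATAAA was found in 95.2% of Krtap windows of chromosome 11, and the GC box in 12.5% of keratin windows of chromosome 15 and in none of the other 3 member groups shown.

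Member promoters, taken as 500 nt on either side of a TSS, held a median of 15 CpG dinucleotides, against 44 over all genes, and a GC content of 52.0% against 55.2%. Near-identical gene copies limit how reads of 36 nt can be placed. The median share of 36-mers that occur once in the genome was 94.3% for members and 100% for all genes, and 33 members (30%) had under 80% unique 36-mers, against 9.87% of all genes. The medians were 84.6% for the Krtap genes of chromosome 11 and 97.7% for those of chromosome 16, and 8 of the 10 Krtap genes outside chromosomes 11 and 16 were under 80%. Krt8 itself stood at 79.4% and Krt18 at 84.5%. Processed copies of both genes are known elsewhere in the genome.

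The lists were long and covered most of the sequence. NG had 1036304 peaks, HG+NT 846027 and HG+miR-93 900109, and those with a summit in the chromosome 15 keratin locus covered 83.3%, 97% and 97.4% of it. Where 3 values follow each other without a label, they stand for NG, HG+NT, HG+miR-93. All 110 members had a promoter peak in all 3 lists, as had 20706 of the 20722 genes, so that the presence of a peak separated nothing. The promoter peak with the highest fold over the input was therefore used, and the fragments at its summit were recovered from its fold and p. This pileup is scaled to the input's depth. 1 fragment of NG, HG+NT and HG+miR-93 counted as 0.447, 0.26 and 0.194, as the lists were 2.24, 3.85 and 5.15 times as deep as the input. Intervals on a pileup are 95% exact Poisson intervals and cover counting error only.

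Taken as 1 set, member promoters stood low among all promoters in NG. By fold, the keratins of chromosome 15 stood high in the HG lists, as did the other genes of that chromosome. The median pileup of the 110 members was 3.13, 3.38 and 3.50, against 5.36, 4.67 and 4.66 over all genes. By fold, the median member stood at percentile 22.2 of all promoters (order-statistic interval 18.5 to 30.4), 40.6 (30.2 to 49.5) and 40.5 (31.8 to 43.7). By group, the keratins of chromosome 15 stood at 18.9, 71.2 and 83, those of chromosome 11 at 25.4, 52.7 and 43.7, and all Krtap genes at 22.2, 25.2 and 30. The other genes of chromosome 15 stood at 54.8, 75.8 and 78.0. Their median pileups of 6.25, 7.01 and 6.80 were above the 3.57, 5.58 and 6.02 of the keratins of that chromosome. Ranked by the highest pileup in place of fold, the median member stood at 13.5, 19.6 and 20.9. The pileup of 5 of the 110 members lay above percentile 50 in NG, 24 did so in HG+NT and 25 with miR-93, and none lay above percentile 90 in any list. A summit within 500 nt of a TSS was found for 48.2% (Wilson interval 39.1 to 57.4), 40% (31.3 to 49.3) and 42.7% (33.9 to 52.1) of members, and for 76.2%, 72.3% and 72.3% of all genes.

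With only the 50000 strongest peaks of a list, such a summit remained for 4 members in NG, against 31.1% of all genes, for 15 in HG+NT, against 33.5%, and for 10 in HG+miR-93, against 28.7%. No member had a promoter summit at a −log10 q of 2 or more, but neither had nearly all other genes (23, 93 and 2 of 20722 had), so that this does not set the members apart. By pileup, other clustered families of specialised cells stood as low or lower. Olfactory receptor genes (1127) had median pileups of 3.13, 2.6 and 2.53, though by fold they stood at percentile 36.4, 22.5 and 22.1 and 48.6%, 51.4% and 55.1% had a summit within 500 nt of a TSS, and the Vmn1r pheromone receptor genes (208) of 2.68, 2.34 and 2.33. Promoters of other genes with a like number of CpGs (9.25 to 23, the middle range of the members, 3465 genes) had medians of 4.02, 3.90 and 4.08, above the 3.13, 3.38 and 3.30 of the 55 members in that range. This did not hold for every group, as the 10 keratins of chromosome 15 in that range had 3.13, 5.45 and 5.34 and the 15 of chromosome 11 3.13, 4.41 and 3.30.

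**Figure D2:**
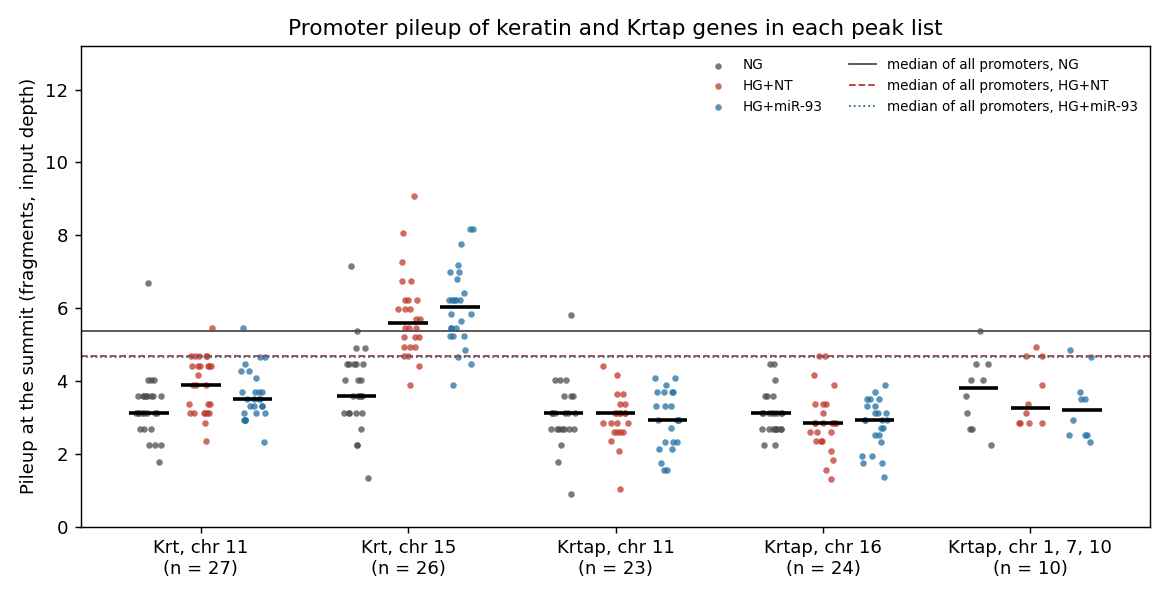
Pileup at the promoter peak's summit, scaled to the input's depth, for each member by group and list. Points are genes, black bars group medians and horizontal lines the medians of all promoters. The chromosome 15 keratins lay below the NG line at a median of 3.57 and above the lines of both HG lists at 5.58 and 6.02, while the Krtap groups of chromosomes 11 and 16 stayed near 3 in every list.

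Krt8, the type II keratin of simple epithelia, had a promoter pileup of 5.36 (2.77 to 9.36, 12 fragments) in NG. In HG+NT it was 6.75 (4.41 to 9.89, 26 fragments), and with miR-93 5.83 (3.93 to 8.32, 30 fragments). The 3 intervals overlapped, so that no difference was detectable at this depth. The gene lies at chr15:101996698-102004482 on the minus strand (mm10), and 1 peak overlapped its promoter in each list. Its summit was 123 nt downstream of the TSS in NG and 1301 and 1451 nt downstream in the HG lists, where the peaks spanned 17939 and 9449 bp. The input's local mean at these summits was 1.98, 4 and 4.20 fragments. The pileup stood at percentile 51.1, 72.8 and 68.4 of all promoters, while the fold, which is relative to that mean, stood at 66.8, 35.3 and 22.5.

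Krt18, the type I partner of Krt8 that lies beside it at chr15:102028180-102032027, had pileups of 4.47 (2.14 to 8.21), 4.93 (2.97 to 7.71) and 5.64 (3.77 to 8.09). Its summits were at -94, 261 and -71 nt from the TSS, minus being upstream, so that Krt18 had a summit within 500 nt in every list. The order NG, HG+NT, HG+miR-93 was within the intervals. Relative to all promoters the log2 ratio of HG+NT to NG was 0.30 for Krt18 and 0.49 for Krt8, and relative to the other promoters of chromosome 15 it was -0.07 and 0.12. By pileup Krt18 stood at percentile 40.9, 52.8 and 65.8 of all promoters.

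Of the other keratins of simple epithelia, Krt7 stood above Krt18 in each list and the remaining 3 below it. Krt7, found in ducts and glands and on chromosome 15, had pileups of 4.91, 5.45 and 7, with a summit 46 nt upstream of a TSS in NG and 201 nt downstream in HG+miR-93. Krt19, the smallest type I keratin and a mark of ductal and renal tubular epithelium, had 3.57, 3.38 and 4.28. Krt20, a keratin of intestinal and urothelial cells, had 3.13, 3.12 and 3.69. Krt23 had 3.13, 3.90 and 3.50. These 3 genes lie on chromosome 11 and did not exceed the median of all promoters in any list. In HG+miR-93, the summits of Krt7 and Krt19 were 2 among the 9 members (8.18%, against 15.1% of all genes) within the 20000 strongest peaks.

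**Figure D3:**
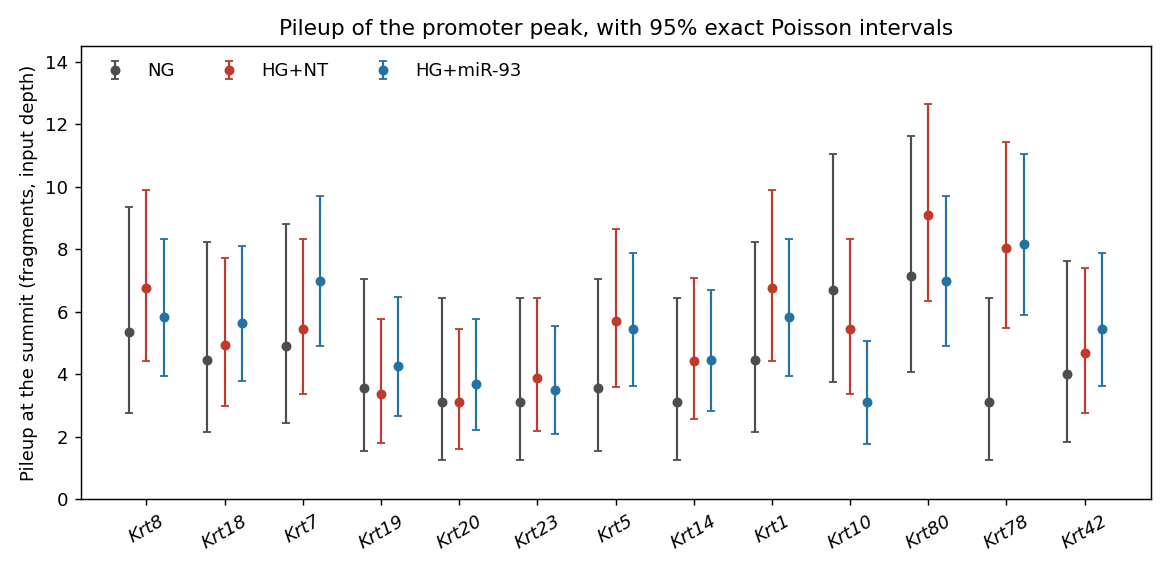
Promoter pileup of 13 keratin genes in each list, scaled to the input's depth, with 95% exact Poisson intervals. For each gene the intervals of all lists overlap, also for Krt78, which stood at 3.13 in NG and at 8.05 and 8.16 in the HG lists.

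Among the keratins of stratified epithelium, the basal pair Krt5 and Krt14 and the suprabasal pair Krt1 and Krt10 are each split between chromosomes 15 and 11. Krt5 had pileups of 3.57, 5.71 and 5.44, and Krt14 of 3.13, 4.41 and 4.47. None of these peaks had its summit within 500 nt of the TSS. Krt1 had 4.47, 6.75 and 5.83, with summits at -186, 94 and -866 nt from the TSS. Krt10 had 6.70, 5.45 and 3.11, the reverse order, from peaks with summits at -291, -124 and -1415 nt from a TSS. Its log2 ratio of HG+miR-93 to HG+NT was -0.73, among the 3 lowest of the members, but it compares different peaks: with miR-93 another peak of Krt10 had its summit at -107 nt and a pileup of 4.86, near the 5.45 at -124 nt in HG+NT. A ratio can compare different peaks at other members too, since the peak of highest fold was taken in each list. The NG peak of Krt10 had a local input mean of 6 fragments, so that its fold stood at percentile 4.72.

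The 8 epidermal keratins together had median pileups of 3.35, 5.06 and 4.86, the 14 of hair and nail 3.57, 4.54 and 3.60, the 8 of the inner root sheath and companion layer 3.13, 4.67 and 4.66, and the 5 of mucosa and cornea 3.13, 4.67 and 4.66. The 4 stress and wound keratins (Krt6a, Krt6b, Krt16, Krt17) had 3.13, 4.54 and 3.79, and the 6 simple epithelial keratins 4.02, 4.41 and 4.96. In NG the medians of these classes thus spanned 3.13 to 4.02, all below the median of all promoters. No class stood apart from the others in NG, and each class holds genes of both chromosomes.

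The highest keratin promoter by mean percentile over the lists was that of Krt80, a type II keratin at the edge of the chromosome 15 cluster with broad epithelial expression. Krt80 had pileups of 7.15 (4.08 to 11.6), 9.09 (6.33 to 12.6) and 7 (4.90 to 9.69). The summit was at -280, -23 and -438 nt from a TSS, and by −log10 p its peak was number 2242, 526 and 4231 of the lists. Krt80 was the only keratin with a promoter summit among the 20000 strongest peaks of NG. It was followed on chromosome 15 by Krt79, found in the hair canal and sebaceous duct, with 4.47, 5.97 and 8.16, and by Krt87 with 4.91, 6.23 and 6.80, whose summits lay far from the TSS at -4099, 5948 and 5863 nt. In HG+miR-93 the peak of Krt79 was also that of its neighbour Krt78, with a summit at -8041 nt from the Krt79 TSS and 5922 nt from the Krt78 TSS. The lowest of chromosome 15 by mean percentile were Krt6a (2.68, 4.93 and 3.89), Krt88 (1.34, 4.41 and 4.86) and Krt76 (2.23, 4.67 and 4.66).

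On chromosome 11 the highest keratins were Krt42 (4.02, 4.67 and 5.44), Krt10 and Krt35, a hair cortex keratin (3.57, 4.67 and 4.66). Krt42 had a summit 187 nt from its TSS in NG and 286 nt in HG+miR-93, and in HG+NT shared a peak of 19478 bp with its neighbour Krt17. The lowest were the hair keratins Krt34 (2.23, 2.86 and 3.11), Krt33b (2.68, 3.12 and 2.92) and Krt40 (2.23, 3.12 and 2.92). 72.0% of the 36-mers of Krt34 and 75.7% of those of Krt33b were unique, against 99.3% for Krt40. The 27 keratins of chromosome 11 had 1 member above percentile 50 by pileup in each list.

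Between NG and HG+NT the member groups differed. Since the median pileup ratio of all promoters was 0.899 on a linear scale (-0.15 as log2), ratios are given relative to it. The 26 keratins of chromosome 15 had median pileups of 3.57, 5.58 and 6.02 and a median log2 ratio of HG+NT to NG of 0.73 (0.52 to 0.96). All 26 were above 0, and 17 were higher by at least 1.5-fold, against 12% of all genes, and 0 lower by as much, against 12.9%. The number with a pileup above percentile 50 was 2, 22 and 23. It was 478, 644 and 645 of the 755 other genes of chromosome 15, and 10546, 10191 and 10028 of all 20722 genes. The 27 keratins of chromosome 11 had medians of 3.13, 3.90 and 3.50 and a log2 ratio of 0.37 (0.15 to 0.54), with 7 higher and 0 lower by 1.5-fold.

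The Krtap groups varied. Median pileups were 3.13, 3.12 and 2.92 on chromosome 11, 3.13, 2.86 and 2.92 on chromosome 16 and 3.80, 3.25 and 3.21 for the 10 elsewhere. Their median log2 ratios of HG+NT to NG were 0.11 (-0.04 to 0.37), 0.02 (-0.25 to 0.37) and 0.33 (-0.49 to 0.69), and 0.13, 0.14 and 0.38 relative to the same chromosome. Over all 57 Krtap genes the median log2 ratio of HG+NT to NG was 0.02 (-0.04 to 0.27). By 1.5-fold, 5 of them (8.77%) were higher and 7 (12.3%) lower, against 12% and 12.9% of all genes. Relative to the same chromosome, 10 (17.5%) were higher and 4 (7.02%) lower, against 11.3% and 12.2% of all genes. Over all 110 members 29 (26.4%) were higher and 7 (6.36%) lower, to be read beside the same 12% and 12.9%. Relative to the same chromosome, 25 members (22.7%) were higher and 4 (3.64%) lower.

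Whole chromosomes differed between the lists. Chromosome 15 stood highest in HG+NT over NG, with chromosomes 8, 19 and 6 also above 0 at median log2 ratios of 0.29, 0.22 and 0.08, so that its keratins have to be read beside their chromosome. The 755 other genes of chromosome 15 had median pileups of 6.25, 7.01 and 6.80 and a median log2 ratio of HG+NT to NG of 0.37 (0.32 to 0.41), with 30.7% higher by 1.5-fold. The 38 genes within 500 kb of the chromosome 15 cluster had 6.48, 6.23 and 6.41 and a log2 ratio of 0.34 (0.21 to 0.57). Relative to the other promoters of their chromosome, the keratins of chromosome 15 had a median log2 ratio of 0.36, close to the 0.39 of the keratins of chromosome 11 on the same scale, and 8 were higher by 1.5-fold in place of 17, against 11.3% of all genes and 10.9% of the other genes of chromosome 15 on that scale. Set against their chromosome, the median of these keratins was thus 0.36 in place of 0.73. Why the chromosomes differed was not tested. Glucose, transfection and the depth of the lists (2.24 and 3.85 times the input) all differed between NG and HG+NT, and cannot be told apart.

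Single members could not be resolved at this depth. The 95% Poisson intervals of NG and HG+NT overlapped for each of the 110 members, and were apart for 2.46% of all genes. For HG+miR-93 against HG+NT they likewise overlapped for each member, with 2.44% of all genes apart. A keratin of chromosome 15 rested on 3 to 16 fragments in NG, where a difference of 1.5-fold lies within counting error.

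The largest log2 ratios of HG+NT to NG were those of Krt88 (1.87, pileups 1.34 and 4.41), Krtap1-4 (1.83, 0.893 and 2.86) and Krt71, an inner root sheath keratin (1.64, 2.23 and 6.23). Each of these started from 2 to 5 fragments in NG. For Krt71 the ratio compares different peaks, with summits at -495 and -2125 nt. Krt78 followed on chromosome 15 with 1.52, though its HG+NT summit was 2417 nt from the TSS. The lowest ratios were all of Krtap genes, Krtap9-1 (-1.21, 2.68 and 1.04), Krtap21-1 (-0.80, 4.02 and 2.08) and Krtap31-1 (-0.80, 4.02 and 2.08). Only 53.7% of the 36-mers of Krtap9-1 and 59.6% of those of Krtap31-1 were unique.

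**Figure D4:**
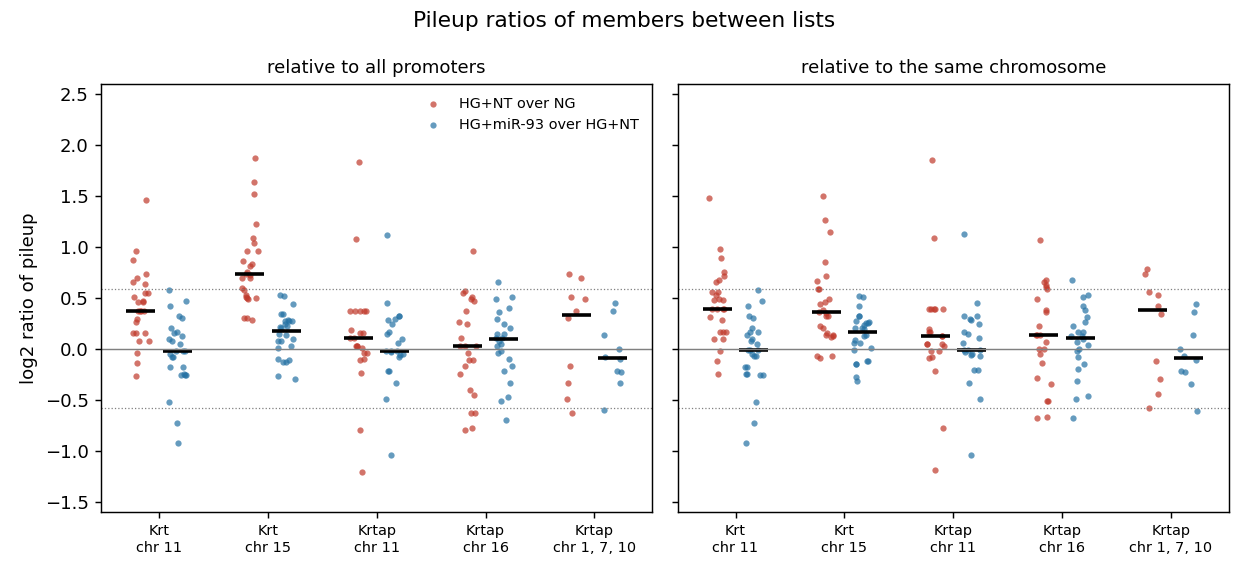
log2 ratio of promoter pileup for each member, HG+NT over NG and HG+miR-93 over HG+NT, relative to all promoters on the left and to the other promoters of the same chromosome on the right. Points are genes, black bars medians and dotted lines a ratio of 1.5. Chromosome 15 keratins had a median of 0.73 on the left and of 0.36 on the right, where chromosome 11 keratins stood at 0.39.

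The comparison of HG+miR-93 with HG+NT shares the HG+NT list with the comparison above, so the values stand side by side. The median ratio of all promoters was 0.948 (-0.08 as log2). Relative to it, the median log2 ratio was 0.17 (0.02 to 0.27) for the keratins of chromosome 15, -0.02 (-0.18 to 0.16) for those of chromosome 11 and 0.02 (-0.05 to 0.14) for the Krtap genes. Of the 110 members 2 were higher by 1.5-fold, against 6.15% of all genes, and 5 lower, against 6.77%, and no keratin of chromosome 15 passed that ratio in either direction. The 2 higher were Krtap9-1 (1.12, pileups 1.04 and 2.14) and Krtap6-3 (0.66, 2.34 and 3.50). The HG+NT value of Krtap9-1 rested on 4 fragments (0.283 to 2.66) and also gave its low ratio of HG+NT to NG. Krt25, an inner root sheath keratin, came next with 0.58 (2.34 and 3.30). The lowest were Krtap4-13 (-1.04, 3.38 and 1.55), whose promoter had 38.2% unique 36-mers, the hair keratin Krt39 (-0.93, 4.67 and 2.33) and Krt10.

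Against NG, HG+miR-93 was higher by 1.5-fold at 38 members, against 12.7% of all genes, and lower at 3, against 13.5%. Of the 26 keratins of chromosome 15, 22 were higher, with a median log2 ratio of 0.93 (0.71 to 1.04) relative to all promoters. Relative to their chromosome 13 were higher, against 12.5% of all genes, with a median of 0.59. Of the 27 keratins of chromosome 11, 12 were higher and 1, Krt10, was lower. For Krt10 the ratio again compares different peaks, with summits at -291 nt in NG and -1415 nt in HG+miR-93. Of the 57 Krtap genes 4 were higher and 2 lower. In both HG lists the keratins of chromosome 15 thus stood above their NG level, but not they alone. In HG+miR-93 over NG the keratins of chromosome 11 had a median log2 ratio of 0.48, and 0.49 relative to their chromosome. The other genes of chromosome 15 had 0.34, with 30.7% higher by 1.5-fold.

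The clusters also differed in their peaks away from promoters. The keratin locus of chromosome 15 spans 0.685 Mb (chr15:101347444-102032027). Its peaks numbered 503, 164 and 144 and their widths had medians of 770, 3015 and 3428 bp, while the medians over chromosome 15 were 1040, 1716 and 1550 bp. Fewer and wider peaks thus covered the locus in the HG lists. Of the 50000 strongest peaks of each list, the locus had 9, 64 and 61, or 13.1, 93.5 (72.0 to 119) and 89.1 (68.2 to 114) per Mb. Chromosome 15 held 17.8, 50.5 and 49.1 per Mb, and chromosomes 1 to 19 held 20.2, 20.1 and 20.1. These counts rest on ranks in lists of different length and depth, and peaks of equal p can fall on either side of the cut. They are therefore given beside the chromosome in the same list.

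Most of these peaks were not at keratin promoters. In HG+NT 9 of the 64, and with miR-93 8 of the 61, had a summit within 500 nt of a keratin TSS, and 43 and 46 lay more than 2500 nt from any coding TSS. The mean pileup of all peaks of the locus more than 2500 nt from a TSS was 2.96, 4.42 and 4.5. Over the rest of chromosome 15 it was 2.94, 3.14 and 3.03 for each 10th such peak, and within 500 kb of the locus 3.20, 4.26 and 4.27. These are means over separately called peaks (405, 125 and 113 in the locus), and fewer and wider peaks raise such a mean by construction, so they do not show how far the signal between the genes differed.

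At the locus of chromosome 11 peaks were also fewer and wider in the HG lists (490, 346 and 389 peaks with median widths of 1331, 1922 and 1673 bp), but the number of strong peaks differed less. The locus of chromosome 11 with its keratin and Krtap genes (1.04 Mb, chr11:99232761-100269871) had 13, 19 and 12 of the 50000 strongest peaks, or 12.5, 18.3 and 11.6 per Mb, against 23.6, 25.2 and 24.2 for its chromosome. The Krtap locus of chromosome 16 (0.960 Mb, chr16:88610705-89571183) held 11, 2 and 1, or 11.5, 2.08 (0.252 to 7.52) and 1.04 (0.0264 to 5.80) per Mb, against 20.6, 13 and 12.2. Mean pileup away from TSSs was 2.46, 2.64 and 2.55 at the locus of chromosome 11 and 2.67, 2.09 and 1.87 at that of chromosome 16.

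**Figure D5:**
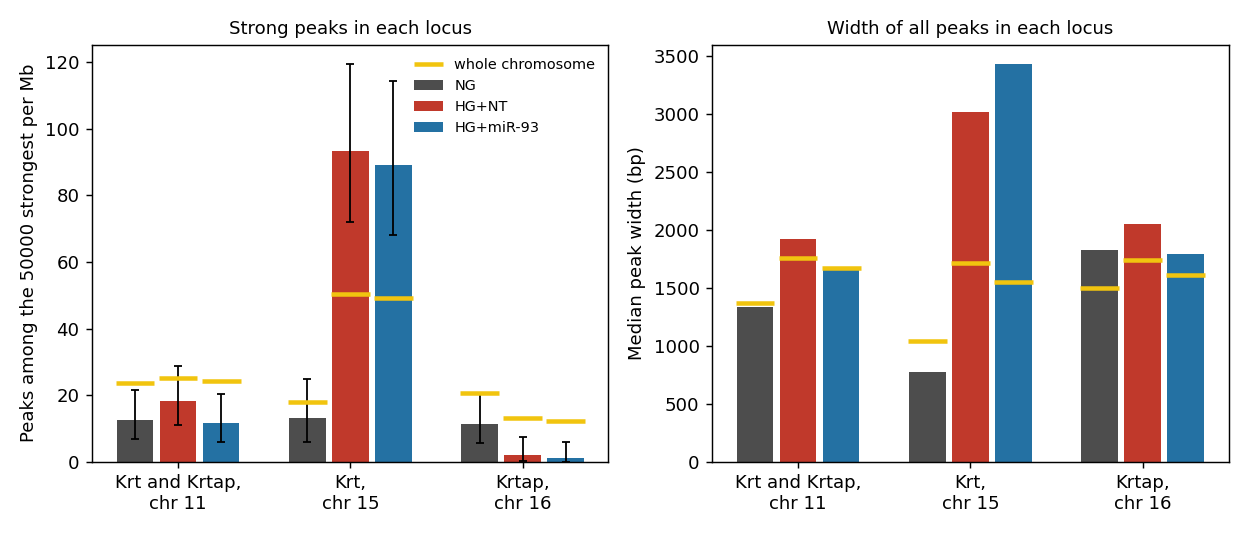
Left, peaks among the 50000 strongest of each list per Mb of the 3 loci, with 95% exact Poisson intervals as error bars. Right, the median width of all peaks of each locus in bp. Yellow bars give the value over the whole chromosome. The chromosome 15 locus held 93.5 strong peaks per Mb in HG+NT against 50.5 on its chromosome, and the chromosome 16 locus 2.08 against 13.

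Promoter peaks were also wider in the HG lists. For the keratins of chromosome 15 the median width of the promoter peak was 2370, 6004 and 9778 bp, against 3342, 4174 and 4115 bp over all genes and 2512, 5065 and 5446 bp over the other genes of chromosome 15. A summit within 500 nt of a TSS was found for 73.1%, 50.0% and 34.6% of these keratins. It was found for 76.2%, 72.3% and 72.3% of all genes and for 84.5%, 73.6% and 71.4% of the other genes of chromosome 15. A wide peak takes its pileup from a summit that can lie far from the promoter it overlaps, and 3 of the 26 (Krt80, Krt84 and Krt18) had a summit within 500 nt in all lists. The part of peak width in the pileup ratios was not tested beyond this. Neighbouring members could also share 1 peak, as 2, 8 and 12 members did, among them Krtap19-1 and Krtap19-2 in every list.

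Among the Krtap genes of chromosome 11, Krtap29-1, whose promoter is shown above, had the highest pileups in NG and HG+NT with 5.81 and 4.41. In HG+miR-93 it shared the highest, 4.08, with Krtap16-1. The summit of Krtap29-1 kept its place, at -1690, -1750 and -1694 nt, and its peak was among the 20000 strongest in each list. By mean percentile Krtap16-1 (3.57, 4.15 and 4.08) and Krtap17-1 (4.02, 3.38 and 3.89) came next. Krtap9-1, Krtap4-9 (2.23, 2.6 and 1.75) and Krtap4-16 (2.68, 2.34 and 2.14) were the lowest of that chromosome. On chromosome 16 the highest were Krtap26-1 (3.57, 4.67 and 3.11), Krtap19-5 (4.47, 3.38 and 3.30) and Krtap13-1 (3.13, 3.90 and 3.89). The lowest were Krtap20-2 (2.23, 1.30 and 1.36), Krtap19-9b (2.68, 1.56 and 1.94) and Krtap6-5 (2.68, 1.82 and 1.75). Krtap11-1 and Krtap14, both of chromosome 16, had a promoter summit among the 20000 strongest peaks of HG+NT with pileups of 4.67 and 4.15, and 2.68 and 3.13 in NG.

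Further members had a peak that overlapped the promoter and was among the 20000 strongest of a list, whether or not its summit was near the TSS. In NG this held for Krtap28-10 of chromosome 1 (5.36, 3.12 and 2.53). In HG+NT it held for Krt16 (1.79, 4.41 and 2.92) and Krt17 (4.02, 4.67 and 3.69), both induced in wounded skin, for Krt26 of the inner root sheath (3.57, 4.15 and 3.30), for Krt75 of the companion layer (3.57, 5.19 and 6.22) and for Krtap10-10 of chromosome 10 (4.47, 4.93 and 4.66). With miR-93 it held for the hair keratins Krt81 (3.13, 5.97 and 6.22), Krt82 (4.02, 5.97 and 5.25) and Krt86 (3.13, 4.93 and 5.44), for Krt2 (4.47, 5.71 and 7.77) and Krt77 (3.13, 4.67 and 5.25) of the epidermis, for Krt4 of the mucosa (4.47, 7.27 and 6.41) and for Krt6b (3.57, 3.90 and 4.47). The hair keratins Krt83 (3.57, 5.19 and 6.22) and Krt84 (3.57, 6.23 and 7.19) had such a peak in both HG lists. Apart from Krt16, Krt17, Krt26 and the Krtap genes, these lie on chromosome 15. Peaks that only overlap a promoter were not counted over all genes here, so these names have no matching share beside them. Counting only summits within 500 nt of a TSS, 3.85%, 15.4% and 26.9% of the chromosome 15 keratins were among the 20000 strongest. The shares were 35.2%, 39.5% and 33.9% for the other genes of chromosome 15 and 29.3%, 20.1% and 15.1% for all genes.

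Other filament genes gave a scale for these values. Vim, the type III filament gene found in podocytes and in mesenchymal cells, had pileups of 8.93, 10.4 and 10.7 and stood at percentile 76.4, 90.9 and 95.9. Jup, which encodes the junction protein plakoglobin and lies next to the keratins of chromosome 11, had 13.8, 10.1 and 9.13. The fixed list of 23 filament, lamin, desmosome and plakin genes had medians of 5.36, 5.45 and 5.25, with 12, 15 and 14 genes above percentile 50. Podocyte genes ranged widely, as Actn4, an actin crosslinker of the foot process, had 10.7, 11.4 and 9.13 and Nphs1, which encodes nephrin, had 4.02, 4.41 and 4.66.

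The keratinocyte list (6 genes, of which Krt5 and Krt14 are members) had medians of 3.57, 4.67 and 4.08, with Sfn, which encodes stratifin, at 7.59, 4.93 and 4.86, Trp63, the master regulator of stratified epithelium, at 3.57, 2.34 and 2.92 and Lor, a cornified envelope protein, at 2.23, 4.93 and 3.69. The hair matrix list (5 genes) had 4.91, 5.19 and 4.66. In it Hoxc13, a regulator of hair keratins that itself lies on chromosome 15, was the highest of the 5 with 7.15, 11.2 and 8.36. Msx2 had 4.91, 4.67 and 4.28, Lef1 5.36, 5.19 and 5.05, Foxn1 2.68, 4.41 and 4.28 and Dlx3 3.13, 5.45 and 4.66. Parietal and tubule epithelium markers (6 genes) had 5.36, 4.41 and 5.25, immune markers (2 genes) 3.35, 3.77 and 3.21, endothelial markers (2 genes) 4.24, 4.93 and 5.15 and housekeeping genes (3) 10.3, 9.09 and 8.55.

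Over the 110 members, Spearman's rho of the pileup was 0.41 between NG and HG+NT and 0.80 for HG+miR-93 with HG+NT, and over all genes it was 0.75 and 0.81. For the fold it was lower, at 0.03 and 0.50 over the members and 0.42 and 0.56 over all genes. These describe genes of the same lists, which share the input and are not independent.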

How the data were processed

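The members and lists were chosen with earlier results of these data known. Per the submitters' processing notes and methods, the authors demultiplexed with CASAVA 1.8.2, trimmed with TrimGalore!, aligned to mm10 by Bowtie, removed duplicate reads, and used MACS2 with the genomic DNA as control to find peaks; the MACS2 settings were described as those recommended for DNase-seq, without values, and other versions were not given in the sources used here. The deposited fold is the ratio of pileup plus 1 to the input's local mean plus 1 at the summit. The deposited −log10 p is from a Poisson model of that pileup, and the deposited −log10 q is made from it over the list.

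Here peaks overlapping 500 nt on either side of a coding TSS by at least 1 bp were taken, and the one with the highest fold was kept. Whole fragments were solved from fold and p, with 1 solution for 95.6% of promoter peaks in NG, 95.5% in HG+NT and 90.4% with miR-93. Of several solutions, that whose local mean was a multiple of 0.2 or 0.02, or the background of 1.43, and then that with the fewest fragments, was used. Neighbours lay within 500 kb of a locus. A member was called at a pileup ratio of 1.5. Median intervals are order-statistic intervals over genes, which are not replicates.

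The text names Krt8, Krt18, Krt7, Krt19, Krt20, Krt23, Krt5, Krt14, Krt1 and Krt10, the 3 highest and 3 lowest of each group by mean pileup percentile, the 3 largest and 3 smallest ratios, and members among the 20000 strongest peaks; others were chosen after their values were seen. The scripts were tested on simulated data and used numpy 2.4.6, matplotlib 3.10.9, scipy 1.17.1, numba 0.67.0 and pandas 2.3.3 under Python 3.11.15. Single replicates and RNA were not analysed here, and no protein sequences were at hand, so that planned classes of Krtap genes by cysteine, glycine and tyrosine content were not formed.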

Additional observations from a re-analysis of the deposited data

How the results depend on the processing

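No paired analysis was possible because each condition has 1 list, taken as pooled from its name, and no replicate could be left out. Of 91 alternatives over 22 results, 65 lay within the main value's interval, or within 1.5 times the main count, and 26 did not. Ranked by the highest pileup, the median member stood at percentile 13.5, 19.6 and 20.9 (NG, HG+NT, HG+miR-93), and with a summit within 500 nt at 17.1 in NG and 48.3 in HG+miR-93. The share of members with a summit was 72.7%, 60% and 61.8% within 1000 nt, 3.64%, 13.6% and 9.09% among the 50000 strongest peaks, 0.909%, 5.45% and 8.18% among the 20000 strongest (all genes 29.3%, 20.1% and 15.1%), and 0%, 0% and 0% at a −log10 q of at least 2 (all genes 0.111%, 0.449% and 0.00965%), where fewer peaks were counted by construction. With a summit within 500 nt in all lists the log2 ratio of HG+NT to NG was 0.59 for 8 keratins of chromosome 11, and that of HG+miR-93 to HG+NT was 0.32 for 3 keratins of chromosome 15 and 0.20 for 7 Krtap genes. Relative to the chromosome, the ratio of HG+NT to NG of the keratins of chromosome 15 was 0.36, and 4 members were lower by 1.5-fold in place of 7. At a ratio of 2, members higher and lower numbered 9 and 1 in HG+NT over NG (all genes 3.32% and 3.95%), and 1 and 1 in HG+miR-93 over HG+NT (1.55% and 2.54%). The cause of these shifts was not tested. Krt8 had no summit within 500 nt in the HG lists, so that alternative gave no value there. Depth limits single genes, with a median of 8, 14 and 18 fragments at promoter peaks.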
